A study of Mus musculus with 686 samples.

Results

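Kidney from 2 groups of mice kept on the ground was compared, one in spaceflight habitat units (Habitat Ground Control, HGC) and one in standard vivarium cages (Vivarium Ground Control, VGC), to describe what housing alone did to small RNA. The libraries were those whose column name gave kidney, the arm HGC or VGC, and the Live Animal Return subgroup (LAR). This took 10 HGC and 9 VGC libraries, 19 of the 686 libraries of 13 tissues in the series, and no flight library. All mice were female BALB/cAnNTac, 5 HGC and 5 VGC mice being 3 months old and 5 HGC and 4 VGC mice 8 months old, and all were fed NASA Nutrient Food Bars.

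HGC mice lived in the same hardware as the flight mice at a matched, higher cage density, with temperature, humidity and carbon dioxide set from readings taken in flight. Their food bars were affected by mold and fell to the cage floor, so density, air, cage and food differed together and cannot be told apart. LAR organs were dissected fresh and frozen. The ISS Terminal subgroup (TERM) holds other ground mice of the same arms, 9 HGC and 9 VGC, that were killed weeks earlier than LAR mice, frozen whole and dissected later. LAR mice were kept longer and moved to another institute before dissection, and LAR HGC mice also went through days of the more crowded housing of the delayed return. Length and kind of housing, transport, killing and freezing thus differ between the subgroups and cannot be told apart. TERM values are set beside LAR for description, with fold changes from its 9 HGC and 6 VGC libraries of kidney profile unless stated. Mice of the arms share numbers but are different animals.

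miRNAs are short RNAs that pair through their seed, bases 2 to 8 from the 5′ end, with target mRNAs and lower their output. In the kidney, miR-192-5p and miR-194-5p are abundant in the tubules, the miR-30 family in glomeruli and tubules, and the miR-200 family in epithelia. The other classes read here are mostly fragments of longer RNAs: tRNA carries amino acids, rRNA builds the ribosome, snRNA splices, snoRNA and scaRNA guide RNA modification, piRNA is known for silencing transposons in the germline, and lncRNA and circRNA are long or circular transcripts.

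Libraries that went against their labels were looked for first. Over 730 miRNAs, each library was correlated with the median profile of every tissue, and 15 of the 19 were nearest to kidney, with r of 0.820 to 0.962 to kidney and at most 0.283 to any other tissue. The other 4 were not. The library labelled HGC mouse 1 was nearest to gonadal adipose tissue (GAT, r = 0.808), VGC mouse 4 to liver (r = 0.736), VGC mouse 11 to spleen and VGC mouse 13 to heart. The rule by which the comparison was chosen also asks for a repeat without sequencing pools 2 to 5, 19 to 22 and 39 to 41, called the listed pools here. They held the first 3 of these and VGC mouse 1, whose profile was that of kidney. VGC mouse 13 came from pool 34, outside them. Results are therefore given for all 19 libraries, for the 9 HGC and 6 VGC left without the listed pools, for the 9 HGC and 6 VGC of kidney profile, and for the 9 HGC and 5 VGC that pass both. In each set of 9 HGC and 6 VGC, 4 HGC and 4 VGC mice were 3 months old, and 5 HGC and 2 VGC mice 8 months. With both exclusions 3 VGC mice were 3 months old and 2 were 8 months. The exact tests do not take age into account. Of the 15 TERM libraries of kidney profile, HGC mice 11, 13 and 16 were nearest to kidney with r of only 0.667, 0.722 and 0.531, while the other 12 reached 0.908 to 0.963. The tissue next in r was brain for mouse 11 (0.247), spleen for mouse 13 (0.353) and thymus for mouse 16 (0.341). Mouse 11 was the highest of the 15 for the brain list (14140 CPM), mouse 13 for the blood list (73570 CPM) and mouse 16 for the thymus and lymphoid (55410 CPM) and striated muscle lists (56540 CPM), with mouse 13 next for muscle (14080 CPM). Where leaving out these 3 (r under 0.8, chosen after seeing the data, 6 HGC and 6 VGC left) turned the sign of a TERM value, both values are given. No pair of LAR libraries of the same arm agreed within sampling noise. Counts over 7 classes (miRNA, piRNA, tRNA, rRNA, snRNA, snoRNA, lncRNA) were 28.5 to 86.7 M per HGC library and 24.3 to 63.9 M per VGC library, of which 1.13 to 9.03 M were miRNA.

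**Figure D1:**
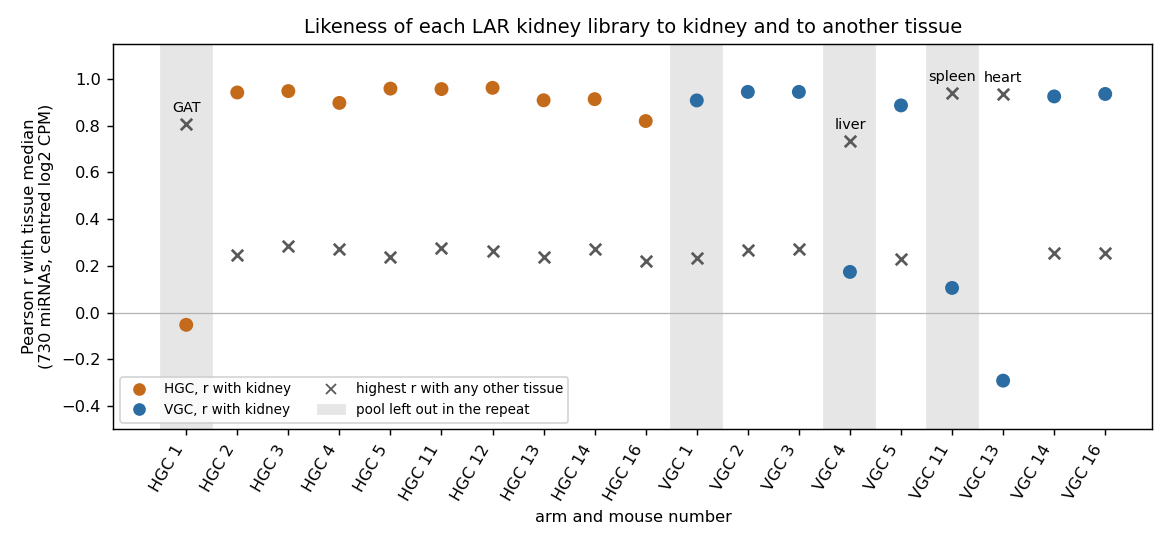
Pearson correlation of each of the 19 libraries with the kidney miRNA profile (dots) and the highest correlation with any other tissue (crosses), with libraries from the listed pools shaded grey. The crosses lie above the dots in HGC mouse 1 and VGC mice 4, 11 and 13, and the other 15 libraries reach 0.820 or more with kidney.

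Levels below are counts per 1 M counts of the feature's own class (CPM), before any scaling factor, and fold changes are log2 of HGC over VGC from edgeR with TMM factors within the class, so levels and fold changes can differ where the factors do. The 10 mature sequences from RefSeq (mouse build GRCm38.p6) printed here were chosen because the results turn on them, with the seed in capitals. They are the kidney marker miR-192-5p with miR-215-5p of the same seed, both members of the miR-26 family, both arms of the miR-802 and miR-200b hairpins, and 2 muscle miRNAs that marked the library of heart profile.
mmu-miR-192-5p: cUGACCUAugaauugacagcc
mmu-miR-215-5p: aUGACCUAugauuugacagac
mmu-miR-26a-5p: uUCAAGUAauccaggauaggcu
mmu-miR-26b-5p: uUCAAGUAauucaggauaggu
mmu-miR-802-5p: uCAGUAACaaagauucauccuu
mmu-miR-802-3p: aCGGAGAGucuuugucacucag
mmu-miR-200b-5p: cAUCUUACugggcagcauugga
mmu-miR-200b-3p: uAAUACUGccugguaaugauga
mmu-miR-133b-3p: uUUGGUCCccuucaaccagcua
mmu-miR-499-5p: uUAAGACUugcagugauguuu

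miR-192-5p lies at chr19:6264857-6264877 on the plus strand and miR-215-5p at chr1:185313610-185313630 on the plus strand. miR-26b-5p is read from chr1:74394324-74394344 and the Mir26a-2 copy of miR-26a-5p from chr10:126995543-126995564, both on the plus strand. The miR-802 arms span chr16:93369737-93369758 and chr16:93369775-93369796 (plus), and the miR-200b arms chr4:156055721-156055742 for 5p and chr4:156055685-156055706 for 3p (minus). miR-133b-3p lies at chr1:20682834-20682855 and miR-499-5p at chr2:155622893-155622913, both on the plus strand.

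Across all 19 libraries no feature of any class passed an adjusted p of 0.05 in edgeR's quasi-likelihood test. This background of calls was 0% in miRNA (492 tested), tRNA (375), rRNA (155), snRNA (651), snoRNA (550), piRNA (352), lncRNA (1336), scaRNA (25) and circRNA (1653). At an unadjusted p under 0.05 the test held 87 miRNAs (17.7%), 24 tRNAs (6.4%), 10 rRNAs (6.45%), 19 snRNAs (2.92%), 14 snoRNAs (2.55%), 43 piRNAs (12.2%), 58 lncRNAs (4.34%), 5 scaRNAs (20%) and 77 circRNAs (4.66%). DESeq2 called 8 miRNAs (1.63%), 9 piRNAs (2.56%) and 3 lncRNAs (0.225%) and nothing else, and the Wilcoxon test that the study used called none. The rule of the study with no p, a log2 ratio of medians over 1 with an effect size over 0.5, took 8 miRNAs (1.63%, 6 higher in HGC), 27 tRNAs (7.2%, 27 higher), 13 snRNAs (2%, 0 higher), 15 piRNAs (4.26%, 14 higher), 40 lncRNAs (2.99%, 34 higher) and 42 circRNAs (2.54%, 36 higher). The Wilcoxon test and this rule used counts per 1 M counts of the 7 classes, so differences in class share enter their counts. For miRNAs, edgeR called 12 of 915 (1.31%) with the detection filter alone and 5 (1.02%) when scaled to the counts of the 7 classes.

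The calls in edgeR depended on which libraries were left in. Without the listed pools 4 of 523 miRNAs were called (0.765%) and no other feature. In the libraries of kidney profile 3 of 521 miRNAs (0.576%) and 433 of 1707 circRNAs (25.4%) were called and none in the other 7 classes. There 37 of 379 tRNAs, 2 of 155 rRNAs, 28 of 654 snRNAs and 17 of 572 snoRNAs had an unadjusted p under 0.05. So did 77 of 356 piRNAs, 327 of 1387 lncRNAs and 2 of 25 scaRNAs. With both exclusions there was again no call in any class by edgeR. At an unadjusted p under 0.05 were 82 of 534 miRNAs, 24 of 379 tRNAs, 1 of 158 rRNAs, 6 of 661 snRNAs and 14 of 582 snoRNAs. So were 41 of 373 piRNAs, 283 of 1419 lncRNAs, 2 of 25 scaRNAs and 602 of 1726 circRNAs. DESeq2 on the libraries of kidney profile called 26 miRNAs (4.99%), 18 piRNAs (5.06%), 199 lncRNAs (14.3%), 2 scaRNAs (8%) and 453 circRNAs (26.5%). In the same libraries edgeR called 5 miRNAs (0.96%) when scaled to the 7 classes and 1 miRNA (0.192%) with age as a term.

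The share of each class in the counts of the 7 classes did not pass a test between housings. Over all 19 libraries, miRNA took 11.7% ± 5.61 (SD, n = 10) of the counts in HGC and 11.7% ± 5.06 (SD, n = 9) in VGC (2-sided exact permutation test, p = 0.970). tRNA took 24.4% ± 27.8 in HGC and 14.9% ± 16.7 in VGC (exact p = 0.368), an SD near or above the mean in both. The highest tRNA shares were those of HGC mouse 1 of GAT profile (84.0%) and VGC mouse 4 of liver profile (54.1%). The shares were 14.0% against 14.9% for rRNA (exact p = 0.680), 16.0% against 19.3% for snRNA (exact p = 0.258), 20.2% against 23.2% for snoRNA (exact p = 0.485), 2.54% against 2.09% for piRNA (exact p = 0.230) and 11.2% against 14.0% for lncRNA (exact p = 0.275). After adjustment over the 7 classes each p was at least 0.641.

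In the 15 libraries of kidney profile, tRNA took 17.7% ± 19.3 of the counts in HGC (n = 9) and 7.77% ± 6.19 in VGC (n = 6; exact p = 0.253), with HGC mouse 16 alone at 67.9%. piRNA took 2.37% ± 0.546 in HGC (1.68 to 3.23%) and 1.74% ± 0.317 in VGC (1.38 to 2.22%), a difference of 0.625 percentage points (exact p = 0.0274). That p was 0.192 after adjustment over the 7 classes. Without the listed pools the piRNA difference was 0.534 points (exact p = 0.0639), and with both exclusions 0.625 points (exact p = 0.0435). In TERM kidney of kidney profile it was 0.00768 points (exact p = 0.945), and -0.0157 points without the 3 HGC libraries of low r (exact p = 0.894). lncRNA took 12.2% ± 4.00 against 15.8% ± 3.05 (exact p = 0.0863) and miRNA 12.8% ± 4.65 against 14.2% ± 3.42 (exact p = 0.552).

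**Figure D2:**
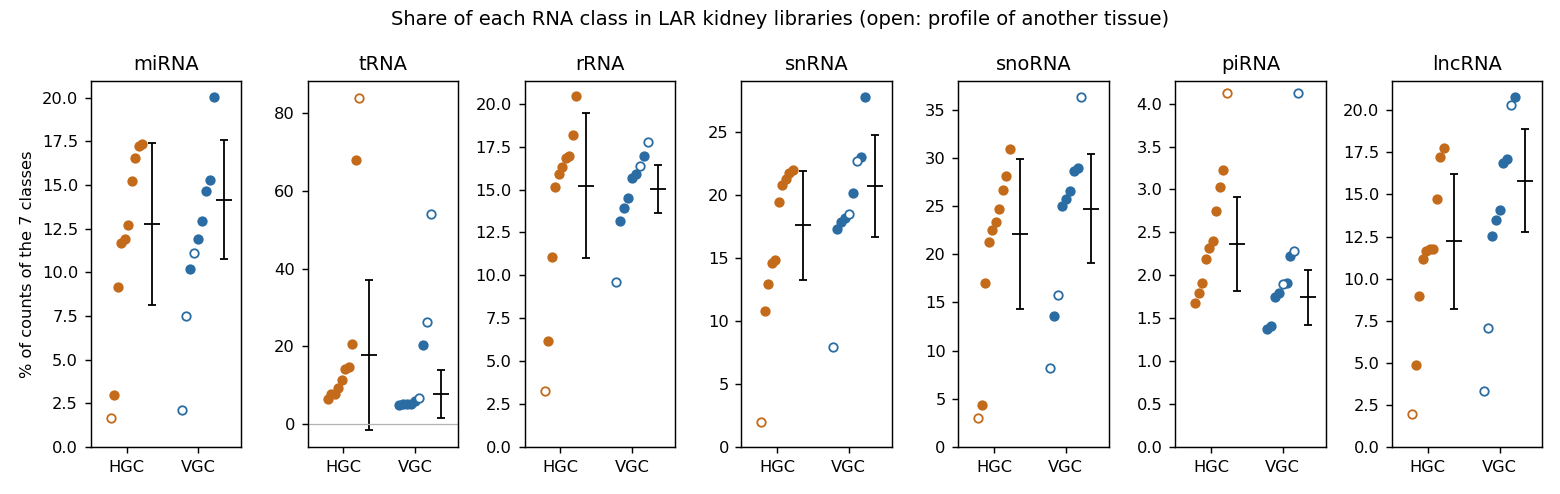
Percent of the counts of 7 classes taken by each class in every library, HGC beside VGC, with open points for the 4 libraries of another tissue's profile and bars for the mean and SD of the others. The points of both arms overlap in every panel, and the tRNA panel has the widest spread, with HGC mouse 16 its highest filled point at 67.9%.

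The kidney marker mmu-miR-192-5p did not pass the test between housings. In the libraries of kidney profile its lowest, median and highest levels were 18180, 22960 and 32960 CPM in HGC and 21620, 25040 and 39970 CPM in VGC (log2 fold change -0.14, SE 0.16, edgeR adjusted p = 0.678). It made up 1.82 to 4.00% of miRNA counts in those 15 libraries. mmu-miR-194-5p, which is processed with miR-192 from the same transcript, had medians of 4545 CPM in HGC and 5144 CPM in VGC (log2 fold change -0.05). mmu-miR-215-5p, which shares the seed of miR-192-5p, stood at 0.606 to 2.55 CPM in HGC and 0.437 to 14.1 CPM in VGC and was too low to test.

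Lists of miRNAs for the cells of the kidney held no call by edgeR. Of 13 kidney tubule miRNAs 11 were tested with a median log2 fold change of -0.01 (-0.42 to 0.45) beside -0.01 over all 521 miRNAs tested. Their summed level was 50550, 60820 and 74270 CPM (lowest, median, highest) in HGC and 54120, 63750 and 81190 CPM in VGC. The 5 epithelial miRNAs had a median of -0.10, the 4 of Hox loci 0.04, the 2 of endothelium -0.24, the 2 of smooth muscle -0.31 and the 7 of blood 0.25, with no edgeR call among them, while DESeq2 called 1 of the blood miRNAs beside 4.99% of all 521. The 10 miRNAs of stress, injury and hypoxia, which include mmu-miR-21a-5p (log2 fold change -0.15) and mmu-miR-34a-5p (-0.22), had a median of 0.04 and no edgeR call, and DESeq2 called 1 of the 10, against the same 4.99%.

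Among the most abundant miRNAs, mmu-miR-26a-5p had medians of 85130 CPM in HGC and 94630 CPM in VGC (log2 fold change -0.16, edgeR adjusted p = 0.607). mmu-let-7c-5p, of the growth-restraining let-7 family, had 89970 and 76200 CPM (log2 fold change 0.31, adjusted p = 0.468), and mmu-let-7a-5p a log2 fold change of 0.07. mmu-miR-143-3p, a smooth muscle miRNA, ranged from 22500 to 45030 CPM in HGC and from 25180 to 56690 CPM in VGC (log2 fold change -0.58, SE 0.20, edgeR adjusted p = 0.121). mmu-miR-10a-5p, from a Hox locus, ranged from 5524 to 16310 CPM in HGC and from 5134 to 10140 CPM in VGC (log2 fold change 0.57, SE 0.24, edgeR adjusted p = 0.199). Its log2 fold change in TERM kidney was -0.44 and that of miR-143-3p 0.15.

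Muscle miRNAs were the calls made without the listed pools, and 1 VGC library carried them. Without the listed pools, the 4 calls were all lower in HGC and all of striated muscle: mmu-miR-1a-3p (log2 fold change -7.26, SE 1.42), mmu-miR-133a-3p (-6.98, SE 1.47), mmu-miR-133b-3p (-5.86, SE 1.25) and mmu-miR-499-5p (-6.87, SE 1.48), each with an edgeR adjusted p of 0.0294. VGC mouse 13, the library of heart profile that those pools leave in, held 279100 CPM of miR-133a-3p, 44630 CPM of miR-1a-3p, 17900 CPM of miR-133b-3p and 1102 CPM of miR-499-5p. With both exclusions the log2 fold changes were -2.06, -0.89, -0.94 and -1.43 in the same order and none was called, miR-1a-3p having an edgeR adjusted p of 0.161.

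In the libraries of kidney profile mmu-miR-1a-3p was called, but not with age as a term (log2 fold change -2.86, edgeR adjusted p = 0.110), and it was called in 6 of the 15 fits that left out 1 library. Its lowest, median and highest levels were 27.8, 82.1 and 211 CPM in HGC and 87.5, 232 and 3685 CPM in VGC (log2 fold change -3.24, SE 0.67, edgeR adjusted p = 0.0218). The ranges overlapped, and VGC mouse 1 at 3685 CPM and VGC mouse 14 at 1675 CPM stood above the others. Summed over 7 striated muscle miRNAs, of which 6 were tested with a median log2 fold change of -1.50, the level was 345, 856 and 2328 CPM in HGC and 714, 1219 and 10420 CPM in VGC, again highest in mice 1 and 14. In TERM kidney the log2 fold change of miR-1a-3p was 4.79 and the list median 3.48, and without the 3 HGC libraries of low r they were -0.04 and -0.39, the latter over 4 tested. The part of muscle in the dissected tissue was not tested, and more muscle cells or more RNA per cell cannot be told apart in whole tissue.

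Markers of other tissues stood out in the same way over all 19 libraries. mmu-miR-122-5p, the main hepatocyte miRNA, had a log2 fold change of -7.51 with VGC mouse 4 at 151700 CPM, and -0.83 (edgeR adjusted p = 0.280) in the libraries of kidney profile. The blood list had a median log2 fold change of -1.78 over all 19 libraries, with VGC mouse 11 at 189100 CPM, against 0.25 in those of kidney profile.

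**Figure D3:**
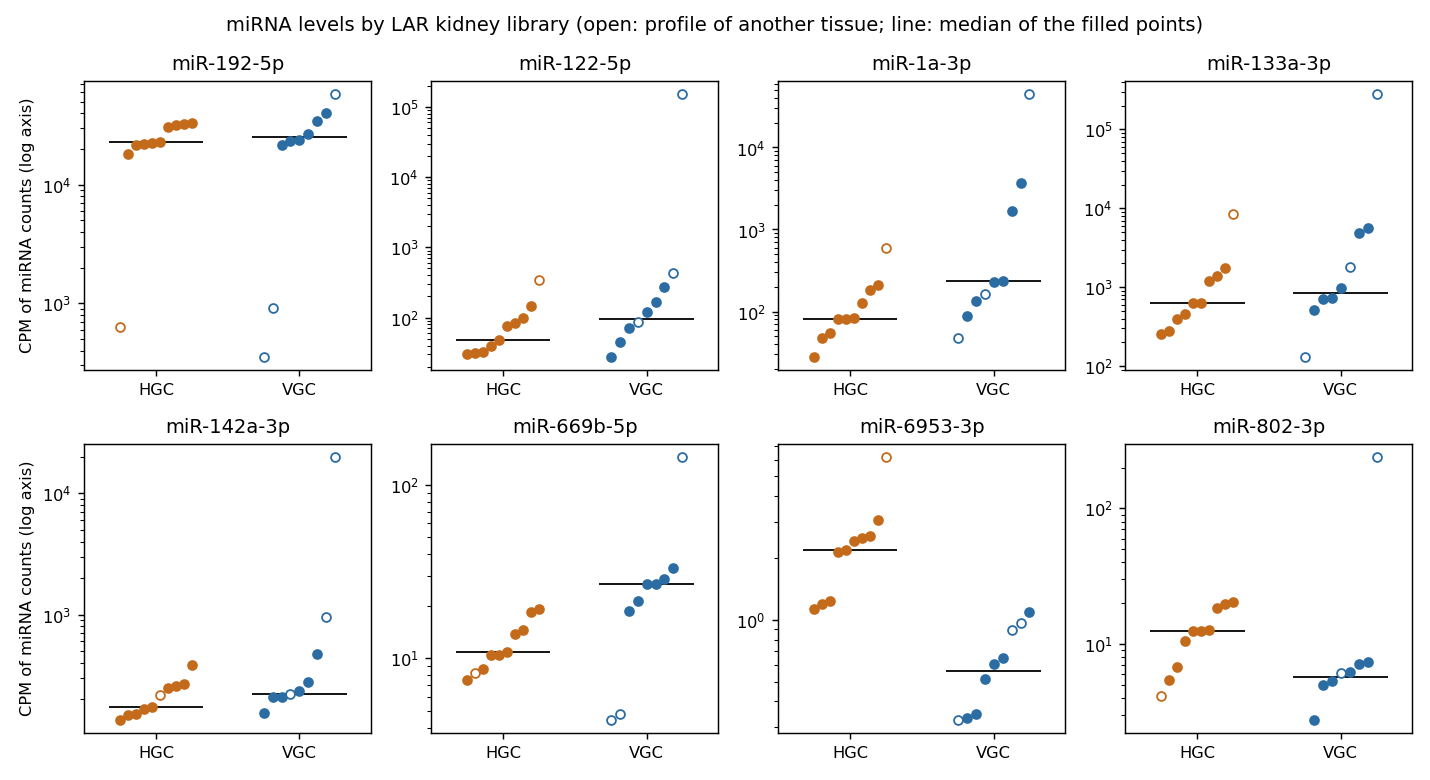
Level of 8 miRNAs in each library on a log axis, in counts per 1 M miRNA counts, HGC beside VGC, with open points for the libraries of another tissue's profile and a line at the median of the filled points. For miR-122-5p, miR-1a-3p, miR-133a-3p and miR-142a-3p an open VGC point lies far above the rest, while miR-669b-5p and miR-6953-3p separate the filled points of the arms almost or wholly.

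The other call lower in HGC was mmu-miR-669b-5p, one of many miRNAs of the miR-297, miR-467 and miR-669 families that arise from an intron of Sfmbt2 in rodents. In the libraries of kidney profile its lowest, median and highest levels were 7.51, 10.8 and 19.3 CPM in HGC and 18.7, 26.8 and 32.9 CPM in VGC. Only the highest HGC library lay above the lowest VGC library. The log2 fold change was -1.09 (SE 0.20, edgeR adjusted p = 0.0218, DESeq2 adjusted p = 0.00234), and with age as a term the edgeR adjusted p was 0.0164. It was called in 6 of the 15 fits that left out 1 library. Over all 19 libraries the log2 fold change was -1.36 (edgeR adjusted p = 0.116), with VGC mouse 11 of spleen profile at 144.6 CPM. It was -0.88 (adjusted p = 0.259) without the listed pools and -1.03 (adjusted p = 0.081) with both exclusions. In TERM kidney it was 0.20, and -0.30 without the 3 HGC libraries of low r.

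The related miRNAs lay on the same side, a pattern picked after the values were seen. Of 49 names in the 3 families 24 were tested in the libraries of kidney profile, and 23 of them were lower in HGC, with a median log2 fold change of -0.74 beside -0.01 over all miRNAs, of which 263 of 521 were lower. Of the 24, 1 was called by edgeR and 7 by DESeq2, beside 0.576% and 4.99% of all 521 miRNAs, and reads shared between such close sequences can be split among them in counting, so the 24 are not separate measurements. The summed level was 357, 537 and 887 CPM in HGC and 628, 772 and 1113 CPM in VGC, with overlap. mmu-miR-669o-5p, with 6.63 to 14.7 CPM in HGC and 15.3 to 28.1 CPM in VGC, did not overlap between the arms and had a log2 fold change of -0.93 (SE 0.22, edgeR adjusted p = 0.0522). mmu-miR-669d-5p had -1.44 (SE 0.35, adjusted p = 0.0559). The count on the lower side was 23 of 23 over all 19 libraries (median -1.17), 21 of 24 without the listed pools (median -0.48) and 23 of 24 with both exclusions (median -0.60). Over all 19 libraries the summed level was highest in VGC mouse 11 of spleen profile (3900 CPM), with VGC mouse 1 next (1113 CPM). In TERM kidney of kidney profile 21 of 23 were higher in HGC with a median of 0.31 and no call. Over all miRNAs 290 of 513 were higher there, with a median of 0.07. The summed levels were 486, 795 and 1738 CPM in HGC and 431, 816 and 1190 CPM in VGC, with HGC mice 13 and 16 highest. Without the 3 HGC libraries of low r, 21 of 22 were lower in HGC there, with a median of -0.19 beside -0.01 over all miRNAs and no call, so the side in TERM rested on those libraries.

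**Figure D4:**
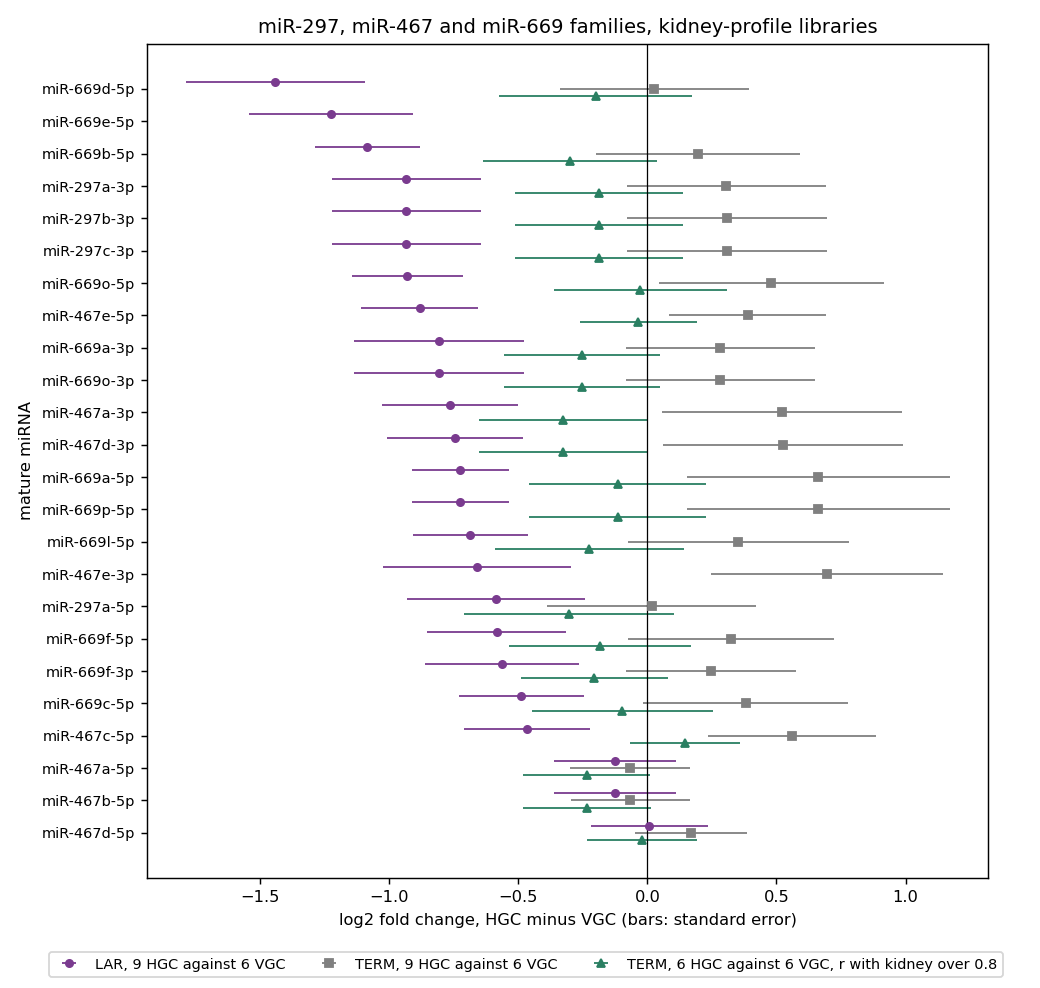
Log2 fold change of HGC over VGC with its SE for the 24 tested miRNAs of the miR-297, miR-467 and miR-669 families, in LAR and in TERM kidney, for the libraries of kidney profile (9 HGC and 6 VGC each), with TERM also without its 3 HGC libraries of low r (triangles). In LAR 23 of 24 points lie below 0, with miR-669b-5p at -1.09, and in TERM 21 of 23 lie above 0 with all of its libraries of kidney profile and 21 of 22 below 0 without those 3.

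The 1 miRNA called higher in HGC was low in abundance. mmu-miR-6953-3p had 1.13, 2.17 and 3.05 CPM (lowest, median, highest) in HGC and 0.332, 0.560 and 1.09 CPM in VGC in the libraries of kidney profile. The arms did not overlap (log2 fold change 1.76, SE 0.36, edgeR adjusted p = 0.0218), but each library held only 1 to 15 reads of it. It was called in 5 of the 9 fits without 1 library in which it was tested, its edgeR adjusted p was 0.0592 with age as a term, and its log2 fold change was 1.52 (adjusted p = 0.195) without the listed pools and 1.83 (adjusted p = 0.081) with both exclusions. It was too low to be tested over all 19 libraries or in TERM.

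Several miRNAs with an adjusted p under 0.1 in the libraries of kidney profile, chosen here after their values were seen, are given beside their closest relatives. mmu-miR-26b-5p had 6990, 8959 and 11800 CPM in HGC and 8247, 14940 and 22980 CPM in VGC (log2 fold change -0.78, SE 0.21, edgeR adjusted p = 0.0623, DESeq2 adjusted p = 0.0488). mmu-miR-26a-5p, which has the same seed UCAAGUA, had a log2 fold change of -0.16 (edgeR adjusted p = 0.607). mmu-miR-200b-5p, the minor arm of an epithelial miRNA, had 21.6, 37.2 and 58.4 CPM in HGC and 12.8, 19.4 and 34.3 CPM in VGC (log2 fold change 0.82, SE 0.21, edgeR adjusted p = 0.0559, DESeq2 adjusted p = 0.00729). The main arm mmu-miR-200b-3p had a log2 fold change of -0.11 (edgeR adjusted p = 0.707). The differences between these relatives were not tested.

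Both arms of miR-802 were on the higher side in HGC. mmu-miR-802-3p had 5.46, 12.6 and 20.5 CPM in HGC and 2.78, 5.76 and 7.43 CPM in VGC (log2 fold change 1.17, SE 0.29, edgeR adjusted p = 0.0559, DESeq2 adjusted p = 0.00517). mmu-miR-802-5p had medians of 83.4 and 44.5 CPM (log2 fold change 0.80, edgeR adjusted p = 0.118). Over all 19 libraries the log2 fold change of miR-802-3p was -1.35, with 239.5 CPM in VGC mouse 4 of liver profile, and in TERM kidney it was 0.00.

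Of the others near the threshold, mmu-miR-3968 had medians of 13.8 and 4.90 CPM (log2 fold change 1.05, edgeR adjusted p = 0.0559) and mmu-miR-92b-3p 325 and 214 CPM (log2 fold change 0.53, adjusted p = 0.0776). mmu-miR-328-3p had 0.85 (edgeR adjusted p = 0.0812). On the lower side, mmu-miR-542-3p and mmu-miR-450a-5p, neighbours in a cluster on the X chromosome, had log2 fold changes of -0.79 (edgeR adjusted p = 0.0559) and -0.73 (adjusted p = 0.0982). mmu-miR-181d-5p had medians of 180 and 255 CPM (-0.79, adjusted p = 0.0914) and mmu-miR-34b-5p -0.55 (adjusted p = 0.0836). In TERM kidney miR-3968, miR-92b-3p, miR-181d-5p and miR-34b-5p had the other sign (-0.29, -0.42, 0.35 and 0.47). The log2 fold change of 3.50 for mmu-miR-132-3p (edgeR adjusted p = 0.0982), a miRNA known from neurons and inflammation, came with 159.8 CPM in HGC mouse 4 and at most 33.17 CPM in the other libraries of kidney profile.

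No tRNA was called. tRNA-Lys-CTT-14-1, among the 3 tRNAs with the smallest p over all 19 libraries, had 3.18, 13.9 and 31.3 CPM in HGC and 9.02, 27.1 and 42.3 CPM in VGC in the libraries of kidney profile (log2 fold change -0.89, edgeR adjusted p = 0.346), and TERM gave 0.55. tRNA-Glu-CTC-1-1, among the most abundant, had medians of 44800 and 44850 CPM. By amino acid, picked after the values were seen, 12 of 12 tRNAs for Asn were on the lower side with a median of -0.58, and 10 of them had an unadjusted p under 0.05 beside 37 of all 379. The 12 were also on the lower side over all 19 libraries (median -0.62) and without the listed pools (-0.48), with none at an unadjusted p under 0.05 in either, on the lower side with both exclusions (-0.58, 9 under 0.05), and on the higher side in TERM kidney (0.41, and 0.44 without the 3 HGC libraries of low r). Of the tRNAs for Gly, 26 of 27 were higher in the libraries of kidney profile (median 0.48) and with both exclusions (0.34), against 13 over all 19 (-0.26) and 4 without the listed pools (-0.02), which keep libraries of another profile. In TERM kidney 4 of the 27 were higher (-0.03). Over all tRNAs 196 of 379 were higher in the libraries of kidney profile. Most were also higher for Arg (18 of 23, 7 at an unadjusted p under 0.05), Ser (19 of 21, 6) and Lys (17 of 24, 5). tRNA-Ser-GCT-1-1 had medians of 153 and 124 CPM (log2 fold change 0.74, edgeR adjusted p = 0.252). Of the tRNAs tested, 61.2% had counts equal to those of another in every library, so neighbours in such a count are not separate measurements. Scaled to the counts of the 7 classes, the median of all tRNAs moved from 0.03 to 0.82, and these signs are relative to the TMM factors.

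rRNA, snRNA and snoRNA fragments held no call. Rn5s, the 5S rRNA, stood at 20130 to 23430 CPM in HGC and 21000 to 23600 CPM in VGC (log2 fold change 0.07, edgeR adjusted p = 0.809). The snRNA Gm25360 had 2209, 2967 and 4374 CPM in HGC and 2634, 4686 and 5823 CPM in VGC (-0.59, adjusted p = 0.471), and the abundant Gm24950, whose counts equalled those of 2 other genes, had -0.56. The snoRNA Snord71, which guides methylation of RNA, had 6245, 8486 and 14170 CPM in HGC and 3445, 5973 and 9625 CPM in VGC (log2 fold change 0.49, edgeR adjusted p = 0.873). Snord100 had medians of 5625 and 3584 CPM (0.48, adjusted p = 0.873).

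Among piRNAs, edgeR called none and DESeq2 18 of 356 in the libraries of kidney profile. piR-113693 had 10.9, 20.3 and 45.9 CPM in HGC and 29.2, 41.4 and 58.6 CPM in VGC (log2 fold change -1.01, SE 0.25, edgeR adjusted p = 0.101, DESeq2 adjusted p = 0.0241), and -1.26 over all 19 libraries (edgeR adjusted p = 0.127). piR-29217, named after its values were seen, had 47.7 to 105 CPM in HGC and 108 to 333 CPM in VGC, with no overlap (-1.53, SE 0.38, edgeR adjusted p = 0.101). oocyte_piRNA1479 was on the other side with 14020, 33460 and 111900 CPM in HGC and 12010, 16410 and 27470 CPM in VGC (log2 fold change 1.68, edgeR adjusted p = 0.137, DESeq2 adjusted p = 0.0241). The log2 fold changes in TERM kidney were 0.13 for piR-113693, 0.41 for piR-29217 and 0.37 for oocyte_piRNA1479, and that of piR-113693 was -0.17 without the 3 HGC libraries of low r.

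Among lncRNAs, AI463229 had the smallest p over all 19 libraries. Its levels in those of kidney profile were 8.39, 11.0 and 54.1 CPM in HGC and 13.9, 16.5 and 19.9 CPM in VGC (log2 fold change -0.90, SE 0.22, edgeR adjusted p = 0.116, DESeq2 adjusted p = 0.00794), with 1 HGC library above all VGC libraries. The abundant 5830416I19Rik had medians of 43490 and 67940 CPM (-1.06, edgeR adjusted p = 0.116, DESeq2 adjusted p = 0.0466), while 6720427I07Rik had 168300 and 127600 CPM and a fitted log2 fold change of -0.22. Gm29966 had a log2 fold change of -3.01 over all 19 libraries, in which 1 VGC library reached 98820 CPM, and -0.89 without the libraries of other profile. In TERM kidney AI463229 had -0.04 (-0.30 without the 3 HGC libraries of low r) and 5830416I19Rik -0.21.

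scaRNA and circRNA were deposited beside the 7 classes. The scaRNA Gm24289 had medians of 638 and 1567 CPM (log2 fold change -0.77, edgeR adjusted p = 0.378, DESeq2 adjusted p = 0.0434), and Scarna17, the most abundant, 260000 and 213000 CPM (0.48, edgeR adjusted p = 0.549).

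For every 100 counts of the 7 classes there were 44.2 ± 16.1 (SD, n = 9) circRNA counts in HGC and 73.9 ± 25.3 (SD, n = 6) in VGC in the libraries of kidney profile (24.7 to 75.5 against 46.8 to 113, 2-sided exact permutation test, p = 0.0134). Over the 7 classes and circRNA together the adjusted p of this exact test was 0.107. The values were 44.2 and 82.5 without the listed pools (exact p = 0.00939) and gave an exact p of 0.0270 with both exclusions. Over all 19 libraries they were 40.5 ± 19.0 and 67.8 ± 40.2 (exact p = 0.0715), and in TERM kidney of kidney profile 84.1 and 99.1 (exact p = 0.340).

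Of the 433 circRNAs called in the libraries of kidney profile, 157 were higher (9.2% of those tested) and 276 lower (16.2%) in HGC, all close to the threshold, with a smallest edgeR adjusted p of 0.0480. The 157 higher ones had closely similar log2 fold changes (median 0.605, quartiles 0.561 and 0.630), and 318 of the 433 had a called partner with a correlation over 0.99 across libraries, so the count is not one of separate changes. It was 0 in 10 of the 15 fits without 1 further library and 558 without VGC mouse 16, and 0 when scaled to the 7 classes or with age as a term. mmu_circ_0002095 had 12.0, 29.3 and 58.9 CPM in HGC and 3.97, 8.92 and 23.7 CPM in VGC (log2 fold change 0.66, SE 0.18, edgeR adjusted p = 0.0480), and TERM gave -0.15. mmu_circ_0005964 had 0.400, 2.01 and 11.2 CPM in HGC and 2.26, 2.57 and 3.40 CPM in VGC (-1.23, SE 0.39, edgeR adjusted p = 0.0480). mmu_circ_0005285 had a log2 fold change of -4.91 over all 19 libraries, with VGC mouse 13 at 126.8 CPM, and -0.50 in those of kidney profile.

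The housing difference was also compared between ages and between subgroups. No feature of any class was called for a housing by age interaction by edgeR over all 19 libraries. At an unadjusted p under 0.05 were 38 of 569 miRNAs, 52 of 385 tRNAs, 1 of 162 rRNAs, 133 of 684 snRNAs and 18 of 597 snoRNAs. So were 43 of 393 piRNAs, 65 of 1674 lncRNAs, 0 of 26 scaRNAs and 62 of 2187 circRNAs. The smallest edgeR adjusted p was 0.0542, for an snRNA. In TERM kidney, where 3 VGC libraries had another tissue's profile, 171 of 562 snoRNAs were called (30.4%, 167 of them higher in HGC). None was called without the listed pools (147 of 573 at an unadjusted p under 0.05) or without those libraries (202 of 589). Under each of these exclusions 1 of 26 scaRNAs was called there (3.85%). The interaction of housing with the subgroup called 8 of 559 miRNAs (1.43%) and 78 of 602 snoRNAs (13%) with all libraries. Without the listed pools it called 0 miRNAs (53 of 560 at an unadjusted p under 0.05) and 144 snoRNAs (23.8%). Without the libraries of other profile it called 2 miRNAs (0.357%) and 0 snoRNAs (119 of 603 at an unadjusted p under 0.05). The 2 were mmu-miR-1a-3p (difference of log2 fold changes -8.04, edgeR adjusted p = 0.0185) and mmu-miR-133a-5p (-7.77), both of muscle. Without the 3 TERM libraries of low r as well, edgeR called no feature of any class for TERM housing or for the interaction, with 1 scaRNA to 29 circRNAs per class at an unadjusted p under 0.05 for TERM housing and 3 rRNAs or scaRNAs to 174 circRNAs for the interaction, 65 of 552 miRNAs among them.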

How the data were processed

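Small RNA was sequenced from mouse kidney by the authors, who mapped reads to GRCm39 and miRBase 22.1 with miRMaster 2.0. For miRNA, estimated counts with some fractions were deposited, and these were rounded for the fits. For the other classes the authors deposited whole-number counts with no normalization. The adapter and quality filters are not given in the sources used here. A feature needed at least 5 reads in 10% of either arm and then passed filterByExpr. edgeR 4.0.16 (limma 3.58.1, R 4.3.3) fitted a quasi-likelihood model per class with TMM factors and Benjamini-Hochberg adjustment within the class, called at 0.05. DESeq2 1.42.0 was an alternative. Class shares were tested over all 92378 splits of 10 against 9 with SciPy 1.17.1 (Python 3.11.15, pandas 2.3.3, numpy 2.4.6, matplotlib 3.10.9), and over all splits of the smaller sets. The edgeR fit of HGC against VGC in LAR kidney was tested on simulated data. Such a test is not reported for the other fits.

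Named features were the kidney marker, those called, the 3 with the smallest p and the 3 with the highest mean per class, up to 5 called without the listed pools, and examples of the lists. All other named features were picked after their values were seen. The members, lists and rules were chosen with earlier results of these data known. The paper states that mice of both arms shared habitats or cages, and which ones did so is not used here. Many features had counts equal to those of another in every library (61.2% of tRNAs tested in the libraries of kidney profile). The totals of 24.3 to 86.7 M per library, the class shares and the circRNA ratio may thus count a read more than once. Counting error is still small for all but the lowest features, and a count of 0 allows up to 3 counts (95%). Mouse numbers did not pair the samples. The text gives the sequences of 10 of the 15 miRNAs matched in RefSeq out of 18 looked for.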

Additional observations from a re-analysis of the deposited data

Results flagged for a closer look

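In each arm the highest or lowest library was set against the next one by Dixon's 95% limit, which chance passes in about 1 in 20 groups, and 13 of 30 groups passed. All 13 concern the 4 libraries whose profile was nearest to another tissue. Most of them are levels of miRNAs that mark tissues, picked with earlier results of these data known. The 13 of 30 can therefore not be read against 1 in 20. HGC mouse 1, of GAT profile, had 0.0636% of its miRNA counts on miR-192-5p, 348.1 CPM of mmu-miR-122-5p, 593.7 CPM of mmu-miR-1a-3p, 8579 CPM of mmu-miR-133a-3p and 6.192 CPM of mmu-miR-6953-3p. VGC mouse 4, of liver profile, had 54.08% of its counts on tRNA, 4.127% on piRNA and 151700 CPM of mmu-miR-122-5p. VGC mouse 13, of heart profile, had 44630 CPM of mmu-miR-1a-3p, 279100 CPM of mmu-miR-133a-3p and 1102 CPM of mmu-miR-499-5p. VGC mouse 11, of spleen profile, had 20000 CPM of mmu-miR-142a-3p, a blood cell miRNA, and 144.6 CPM of mmu-miR-669b-5p.

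With all libraries in, an edgeR interaction test of housing with the LAR or TERM subgroup called 8 of 559 miRNAs (1.43%) and 78 of 602 snoRNAs (13%). The 8 were mmu-miR-1a-3p, mmu-miR-133a-3p, mmu-miR-133a-5p, mmu-miR-208a-3p and mmu-miR-499-5p of muscle, both arms of mmu-miR-122 of liver, and mmu-miR-5128. Without the libraries of other profile the counts were 2 and 0. Without those of r under 0.8 to kidney they were 0 and 0 (65 of 552 miRNAs, 17 of 596 snoRNAs at an unadjusted p under 0.05).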

How the results depend on the processing

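The count of miRNAs called by edgeR was 0 over all 19 libraries, 0 to 5 when 1 library was left out, 4 without the listed pools, 3 in the libraries of kidney profile, 5 when scaled to the 7 classes (also 5 in those of kidney profile), 12 with the detection filter alone, 1 with age as a term in the libraries of kidney profile, and 8 by DESeq2 or by the rule of the study, rising to 26 by DESeq2 in the libraries of kidney profile. In those 15 libraries leaving out 1 more gave 0 to 24 miRNAs, with 0 without HGC mouse 3, 4 or 14 or VGC mouse 1 and 24 without VGC mouse 16. The rule of the study, on counts per 1 M counts of the 7 classes, also took 27 tRNAs, 13 snRNAs, 15 piRNAs, 40 lncRNAs and 42 circRNAs. There edgeR, scaled within the class, called 0. DESeq2 called 9 piRNAs and 3 lncRNAs, and in the libraries of kidney profile 18 piRNAs, 199 lncRNAs, 2 scaRNAs and 453 circRNAs, where edgeR called 433 circRNAs. The difference in rRNA share, -0.849 points, was 0.0825 without the listed pools, 0.195 in the libraries of kidney profile and 0.324 with both exclusions. The piRNA share difference of 0.458 points was 0.625 in the libraries of kidney profile and with both exclusions. With 1 library left out the share differences ranged from -1.565 to 0.3445 points for rRNA, -1.294 to 1.017 for miRNA, 0.2826 to 0.7135 for piRNA, 2.891 to 14.42 for tRNA, -4.673 to -1.686 for snRNA, -4.885 to -1.101 for snoRNA and -4.1 to -1.749 for lncRNA. The 171 snoRNAs of TERM became 0 without the listed pools and 0 without the libraries of other profile. The interaction with the subgroup went from 8 miRNAs to 0 and 2, and from 78 snoRNAs to 144 and 0, in the same order. Without the libraries of other profile and the 3 further TERM libraries of r under 0.8 these counts were 0, of which only that of miRNAs moved from its value without the libraries of other profile alone. The cause was not tested. Leaving out the libraries of other profile was planned for the LAR comparison of housing. For TERM and the interactions it was chosen after seeing the data. So were doing it together with the pools, DESeq2, scaling or age, and leaving out those 3.

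Mouse numbers are shared between the arms but mark different animals. Over 9 pairs the correlation of the deviations was -0.429 to 0.259, over 0.1 in 3 and highest with its own number in 0. With mouse number as a replicate block edgeR called 0 features in each of the 9 classes, and the share differences within numbers were -0.637 points for miRNA, 11.4 for tRNA, -0.974 for rRNA, -3.91 for snRNA, -3.51 for snoRNA, 0.497 for piRNA and -2.84 for lncRNA.

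With 5 or 6 VGC libraries left, calls rest on few mice. p-values measure the spread between these mice and treat those of a shared cage as separate, so differences between cages cannot be told apart from housing. Depth limits only the lowest features, such as miR-6953-3p.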
